A study of Mus musculus with 8 samples.

Results

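Among 8 ATAC-seq libraries of mouse lung fibroblasts, the strongest axis of variation in chromatin accessibility ran across both genotypes and put 4 libraries on either side. The sides were set by the first principal component (PC1) of log2 CPM, counts scaled to a common library total, over all 185268 open chromatin regions (OCRs, the peaks of the deposited table). WT F1, WT M2, KO F1 and KO M1 had negative scores and are called PC1-negative here. KO F2, KO M2, WT F2 and WT M1 had positive scores and are called PC1-positive. These 2 groups of 4 hold all 8 libraries of the series. They were picked from the measured values, so every difference between the sides below is a description with no test. A working name for this axis was a hidden culture split, but no label names a culture, batch or date that divides the libraries this way, so it is named by PC1 only.

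Per the labels and the design text, each library came from primary lung fibroblasts of 1 mouse, either a cGAS knockout (KO) or a wild-type (WT) animal, with 2 mice of either sex per genotype. All cultures shared the same conditions, 5% CO2 and 5% O2 in medium with 15% FBS. The strain, the age of the mice, the knockout allele and the passage of the cultures were not given in the sources used here. The labels name no tissue-specific driver for the KO, and the libraries measure cells grown in culture, not lung tissue. Either side held 2 KO and 2 WT libraries, and within each genotype 1 library of either sex label. The library labelled KO F2 carried Y-chromosome counts (25.0 CPM over the 15 OCRs in the first 2 Mb of Y, while the remaining 3 libraries from mice labelled female had 0.0335 to 0.0571 CPM and those labelled male 31.2 to 43.3 CPM), so its sex label is in doubt, and values without it are given where they differ. Defining markers of fibroblasts could not be read out, because no gene annotation in the build of the table was used here.

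ATAC-seq counts the places where a transposase can cut nuclear DNA, so a high count marks DNA that is not wrapped tightly. Highly transcribed genes are usually among the most accessible sites. Transfer RNA (tRNA) genes, the 5S ribosomal RNA genes and a few other short genes are transcribed by RNA polymerase III from promoters that lie partly inside the genes, and rodent B2 elements are retrotransposons that descend from a tRNA and keep such an internal promoter. Most small nuclear RNAs of the spliceosome, such as U1, U2, U4 and U5, are made by RNA polymerase II, while U6 and 7SK are made by RNA polymerase III from promoters upstream of the gene. cGAS is a sensor of cytosolic DNA that starts the interferon response.

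PC1 held 45.0% of the variance and PC2 26.9%. The PC1 scores were -193.5 for KO F1, -141.6 for WT F1, -98.4 for WT M2 and -80.0 for KO M1, and 107.0 for KO M2, 120.9 for WT M1, 121.8 for WT F2 and 163.7 for KO F2. The libraries nearest to 0 were therefore KO M1 on the negative and KO M2 on the positive side, and the gap between them was larger than the gap between any other neighbours along the axis. On PC2 the 4 KO libraries (-144.9 to -41.5) lay below the 4 WT libraries (-16.0 to 168.3). Depth overlapped between the sides: OCR totals were 35.2 to 55.3 M counts in PC1-negative and 28.0 to 50.7 M in PC1-positive libraries, and the share of counts inside OCRs was 65.1 to 75.8% and 64.6 to 76.4%. PC1 computed over the 70433 OCRs that overlap no repeat gave every library the same side, as did PC1 over autosomes only and over the 26983 OCRs above 10 CPM.

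**Figure D1:**
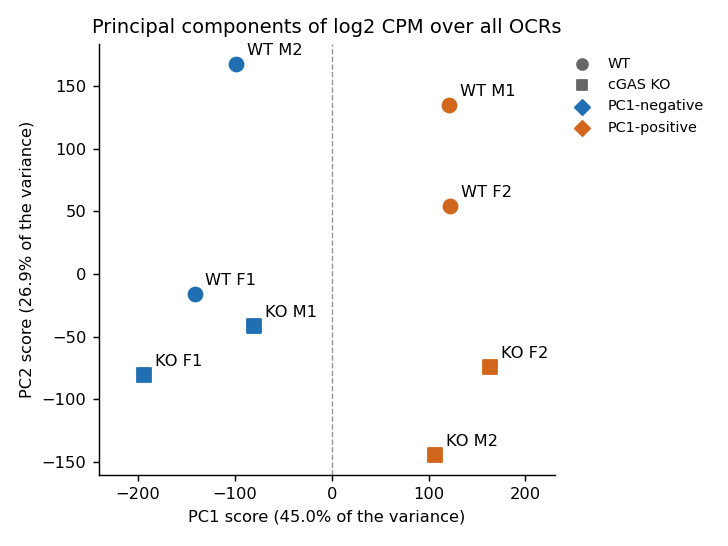
Scores of the 8 libraries on PC1 (horizontal, 45.0% of the variance) and PC2 (vertical, 26.9%) of log2 CPM over all OCRs, with squares for KO and circles for WT. PC1 runs from -193.5 to 163.7 with no library between -80.0 and 107.0, and both genotypes lie on either side of the dashed line at 0.

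The OCRs that differed most between the sides were weak regions, and most of these were higher in the PC1-negative libraries. Of the 144098 OCRs with a mean of at least 1 CPM, 17410 (12.1%) had all 4 PC1-positive libraries above all 4 PC1-negative ones, and 22890 (15.9%) the reverse; these are called apart below. With a fold of at least 2 between the side means as well, 2250 OCRs (1.56%) were higher in PC1-positive and 6782 (4.71%) were higher in PC1-negative libraries. The former had a median level of 1.7 CPM and a median length of 501 bp, the latter 2.26 CPM and 549 bp, against 3.36 CPM and 602 bp over all 144098. Without the library labelled KO F2 the counts were 1765 and 6785. With the total of the whole table as library size in place of the OCR total, 122744 OCRs reached 1 CPM and the former count was 1252. Of all OCRs apart 31.6% were then higher in PC1-positive libraries, against 43.2% with the OCR total. With 2 other scalings of library size, TMM and RLE, that share was 46.5% and 48.2%, closer to even. Of the OCRs apart and at least 2-fold, the share was 24.9% with the OCR total, 27.0% with TMM and 28.5% with RLE. All these values come from the contrast that set the sides, so the counts only show how widely PC1 was spread over the genome.

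The direction depended on the level of the region. Among OCRs of 5 to 10 CPM, 19.9% were apart and higher in PC1-negative and 9.43% higher in PC1-positive libraries. Among those of 20 to 50 CPM the order was turned, with 6.01% and 35.7%, and among the 711 OCRs of 50 CPM or more it was 1.97% and 69.8%. The strongest regions thus stood higher in the PC1-positive libraries, but by little: their median log2 ratio of side means (PC1-positive over PC1-negative, used throughout) was 0.24, and 2 of the 711 reached 2-fold. Within the genotypes the medians were 0.20 between the KO libraries and 0.28 between the WT libraries of the 2 sides.

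Long OCRs were also strong ones. Of the 3954 OCRs of 1500 bp or more, with a median of 23.55 CPM, 24.4% were apart and higher in PC1-positive and 11.4% higher in PC1-negative libraries, while for OCRs of 500 to 800 bp the shares were 10.3% and 16.7%. Among strong OCRs the long ones were not further toward PC1-positive than the shorter ones: at 20 to 50 CPM, 31.7% of OCRs of 1500 bp or more and 37.6% of those of 800 to 1500 bp were higher in PC1-positive libraries, and at 50 CPM or more 59.7% and 78.7%. At 10 to 20 CPM the OCRs of 1500 bp or more went the other way (8.23% higher in PC1-positive, 20.8% in PC1-negative).

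OCRs holding a simple repeat of only G and C with a CG step, such as (GCC)n or (CGG)n, also leaned to the PC1-positive libraries. Such repeats lie mostly in CpG-rich DNA, which in mammals often marks promoters. Of 3397 such OCRs 31.6% were apart and higher in PC1-positive and 6.95% higher in PC1-negative libraries. They were strong regions, with a median of 18.59 CPM. Those of 2 to 5 CPM (9.48% and 13.8%) and of 5 to 10 CPM (13.3% and 14.4%) did not lean that way. At 1 to 2 CPM the shares were 12.2% and 2.88%, and at 10 to 20 CPM 22.3% and 10.2%. At 20 to 50 CPM the shares were 45.0% and 1.96%, against 36.4% and 5.8% in OCRs with no repeat of the same level. OCRs holding an AC or GT repeat showed 25.5% and 9.87% at that level, so the 2 kinds of simple repeat lay on opposite sides of the repeat-free OCRs.

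By chromosome the split was even. Over the 19 autosomes the share of OCRs apart and higher in PC1-positive libraries ranged from 10.3 to 14.1%, and the share higher in PC1-negative libraries from 14.4 to 17.3%. Chromosome X had 11.3% and 13.4%.

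**Figure D2:**
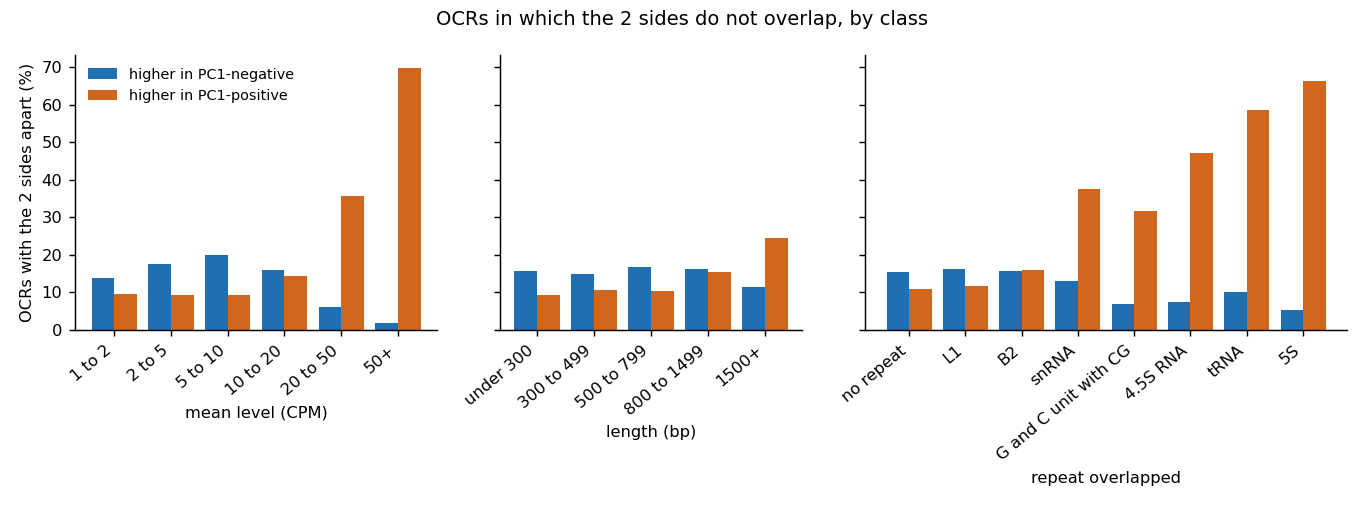
Share of OCRs of at least 1 CPM in which the 4 libraries of a side lie above the 4 of the other (vertical, %), by mean level (CPM), length (bp) and the repeat overlapped, in blue where PC1-negative and in orange where PC1-positive libraries are higher. The orange bars reach 69.8% at 50 CPM or more, 58.6% for OCRs with a tRNA copy and 66.2% for those with a 5S copy, against 12.1% over all OCRs.

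Transfer RNA genes went with PC1 in nearly every family. Repeat counts were scaled by the total over all OCR and repeat rows, a scale called CPM of the table. The 3160 tRNA rows summed to 287, 250, 252 and 281 CPM of the table in WT F1, WT M2, KO F1 and KO M1, and to 422, 413, 420 and 370 in KO F2, KO M2, WT F2 and WT M1. All PC1-positive libraries lay above all PC1-negative ones, with means of 406 ± 24.4 and 268 ± 18.9 (SD, n = 4 each), a ratio of 1.52-fold. The log2 ratio was 0.65 between the KO libraries of the 2 sides, 0.56 between the WT libraries and 0.58 without the library labelled KO F2. The tRNA copies inside OCRs carried most of it (199 ± 15.7 against 322 ± 16.5 CPM of the table, 1.62-fold), and the 2741 copies outside OCRs overlapped between the sides (59.0 to 79.6 against 69.8 to 93.9).

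The table sorts tRNA rows into families by amino acid and codon, and 46 families averaged 100 counts or more in a library. In 43 of the 46 (93.5%) the sides were apart and higher in PC1-positive libraries, and in none the reverse, against 5.64% and 4.3% of all 1187 repeat subfamilies of that depth. The median log2 ratio of the 46 was 0.83, and that of the 1187 was 0.01. In 45 of 46 families the ratio was above 0, among KO libraries in 46 and among WT libraries in 44. Over the 1187 subfamilies it was above 0 in 647, among KO libraries in 971 and among WT libraries in 206.

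The largest ratio was that of tRNA-Gly-GGA, a family for glycine. It had 5.77, 5.56, 5.39 and 7.88 CPM of the table in WT F1, WT M2, KO F1 and KO M1, and 15.4, 15.4, 15.4 and 13.3 in KO F2, KO M2, WT F2 and WT M1. The lowest PC1-positive library was well above the highest PC1-negative one, and the side means differed 2.42-fold. The glutamate family tRNA-Glu-GAG_v (2.3-fold), the glutamine family tRNA-Gln-CAA (2.27-fold), the other glycine family tRNA-Gly-GGY (2.13-fold) and the aspartate family tRNA-Asp-GAY (2.11-fold) came next. The initiator methionine tRNA, tRNA-Met-i, which starts every nuclear-encoded protein, was 1.82-fold higher (3.98 ± 0.254 against 7.27 ± 0.459). The selenocysteine family tRNA-SeC(e)-TGA was 1.88-fold higher, with log2 ratios of 1.25 among WT and 0.48 among KO libraries.

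Families with many dispersed copies showed smaller ratios. The 4 families of 100 copies or more were tRNA-Lys-AAG with 179 copies (log2 ratio 0.49), tRNA-Ala-GCG with 284 (0.36), tRNA-Ala-GCA with 368 (0.17) and tRNA-Ala-GCY_v with 1278 (0.05). The 2 largest of these overlapped between the sides, and in tRNA-Ala-GCY_v only 80 of 1278 copies lay in OCRs. The remaining family that overlapped was tRNA-Ser-TCA(m), with 12.9 to 38.4 CPM of the table in PC1-positive and 22.7 to 46.2 in PC1-negative libraries. Its values were highest in WT F1 and lowest in WT M1.

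**Figure D3:**
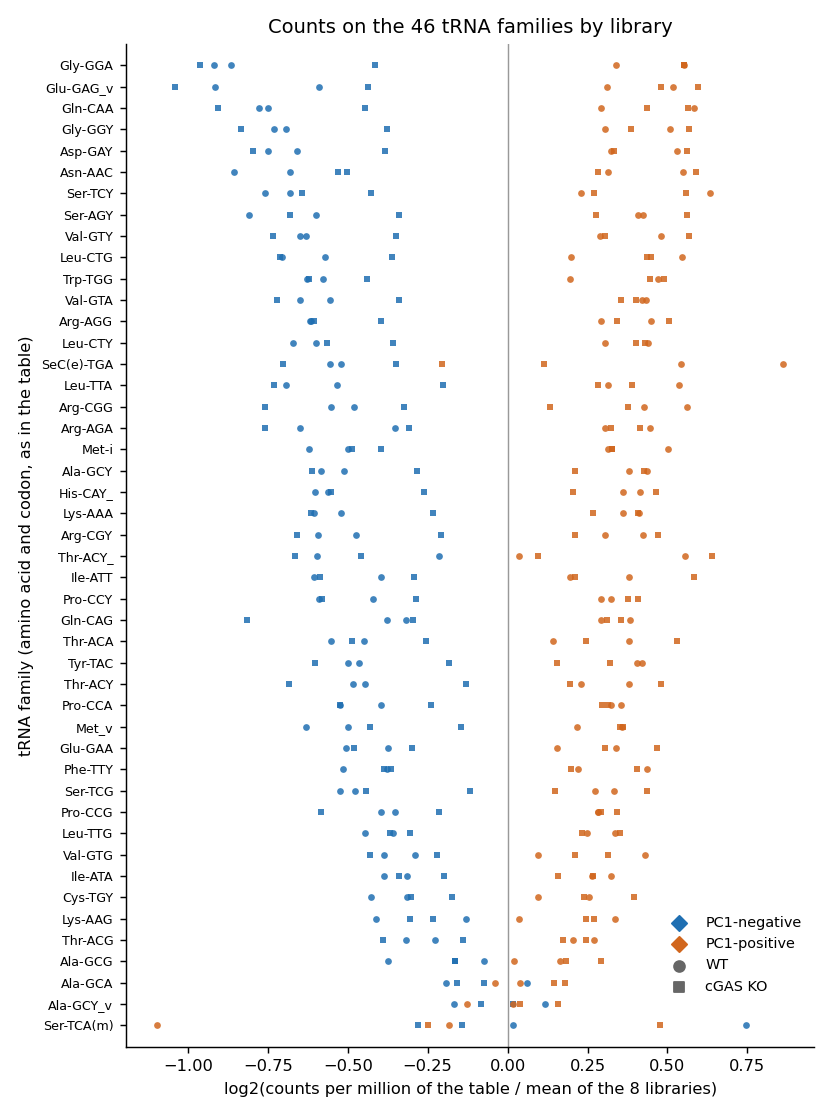
Counts of the 46 tRNA families (rows, by amino acid and codon) in every library, as the log2 of CPM of the table over the mean of the 8 libraries (horizontal), with squares for KO and circles for WT. Blue and orange points are separated in 43 rows and mixed in Ala-GCA, Ala-GCY_v and Ser-TCA(m) at the bottom.

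Single copies, which make up the family sums, showed the pattern too. Of 122 tRNA copies with a mean of at least 50 counts, 116 (95.1%) were apart and higher in PC1-positive libraries and 0 the reverse, against 7.34% and 11.2% of the 27110 repeat copies of that depth. Their median log2 ratio was 0.76. Of the 8 such copies outside OCRs, 7 were apart as well. Both copies of tRNA-Ser-TCA(m) in this set had ratios below 0. Reads from near-identical copies may have been placed at random or shared among them, so single copies are less certain than family sums.

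OCRs that overlap a tRNA copy were also described on the scale of OCR counts. This is not a separate result, since 114 of the 122 copies above lie in OCRs and share read ends with them. The counts of these OCRs also entered the PC1 that set the sides. Of 336 such OCRs of at least 1 CPM, 197 (58.6%) were apart and higher in PC1-positive libraries and 34 (10.1%) the reverse, against 12.1% and 15.9% of all OCRs of that level, with a median log2 ratio of 0.50. The former share was 41.5% at 1 to 2 CPM and 86.4% at 20 to 50 CPM, where OCRs with no repeat had 8.65% and 36.4%.

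The steepest tRNA differences lay in a cluster on chromosome 1. In the 64 kb from 1:170866183 to 1:170930396, there were 15 tRNA copies of at least 50 counts, and all 15 were apart. Those in the middle repeat the order of glutamate, glycine, aspartate and leucine tRNAs. Together they had 8.57, 7.34, 6.15 and 11 CPM of the table in WT F1, WT M2, KO F1 and KO M1, and 27.7, 25.5, 28.1 and 22.4 in KO F2, KO M2, WT F2 and WT M1. The ratio was 3.14-fold, against 1.55-fold to 1.99-fold in the 6 other clusters of 4 or more such copies, on chromosomes 11, 13, 14 and 19. The tRNA-Asp-GAY copy at 1:170892925-170892998 had the largest ratio of all 122 copies, with 0.343 to 0.672 CPM of the table in PC1-negative and 1.9 to 2.96 in PC1-positive libraries (4.86-fold). Those in the middle differed 3.03-fold to 4.86-fold, and those at the edges 1.52-fold to 1.95-fold.

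**Figure D4:**
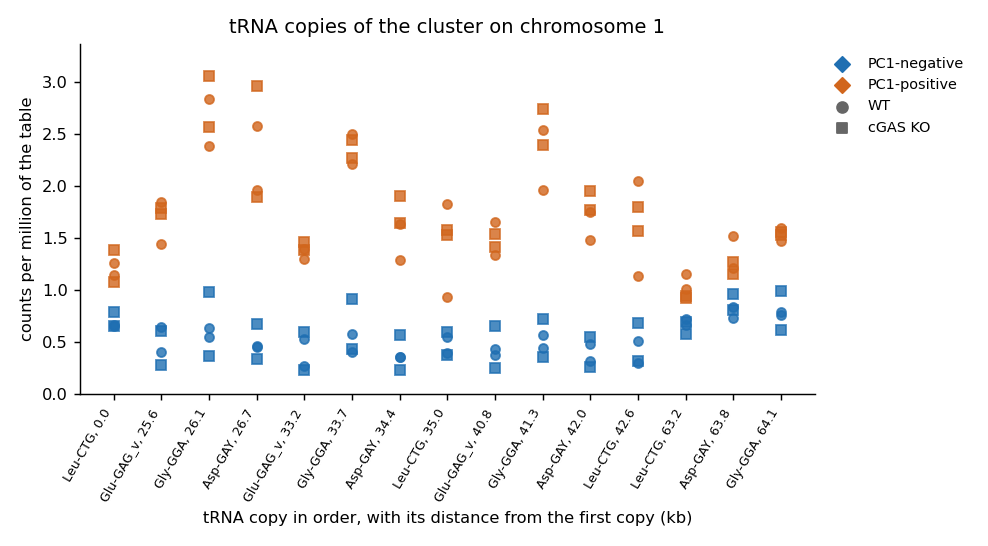
The 15 tRNA copies of the cluster on chromosome 1 in their order, labelled by family and distance from the first copy (kb), with the CPM of the table in each library (vertical, squares for KO and circles for WT). The orange PC1-positive points lie above the blue PC1-negative ones at every copy, and by most at the repeats of Glu, Gly, Asp and Leu tRNAs 26 to 43 kb from the first.

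The 5S ribosomal RNA genes, whose product is part of the large ribosomal subunit, went the same way. Their family sum was 71.6, 70.6, 64.2 and 72.4 CPM of the table in WT F1, WT M2, KO F1 and KO M1, and 123, 107, 111 and 102 in KO F2, KO M2, WT F2 and WT M1 (69.7 ± 3.77 against 111 ± 9.09, 1.59-fold). The libraries of a side lay close together, and the sides did not overlap. In the tandem array on chromosome 8 all 44 of the 5S copies of at least 50 counts were apart, with a median log2 ratio of 1.06 (0.89 to 1.28). Over the 27110 repeat copies of that depth, 7.34% were apart and higher in PC1-positive and 11.2% higher in PC1-negative libraries. Reads may be shared among the near-identical 5S copies of the array, so the 44 may not be separate measurements. A lone 5S copy at 5:53503625-53503714 overlapped between the sides (2.14 to 2.85 against 1.3 to 2.64 CPM of the table). Of the 74 OCRs with a 5S copy and at least 1 CPM, 49 (66.2%) were apart and higher in PC1-positive libraries and 4 (5.41%) the reverse, against 12.1% and 15.9% of all OCRs of that level.

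The other short RNA genes differed in part. The 4.5S RNA of rodents, also a product of RNA polymerase III, had 92.5 ± 7.29 against 131 ± 13.1 CPM of the table (1.42-fold, apart). All 21 of its copies of at least 50 counts were apart toward PC1-positive libraries, against 7.34% of the 27110 repeat copies of that depth. The 21 copies may share reads too, so they may not be separate measurements. For U6, 7SK and 7SL RNA the family sums overlapped (log2 ratios 0.14, 0.15 and 0.16), and most of their 616 to 1325 copies lie outside OCRs. The most counted copy of each was apart: 7SK at 9:78082584-78082915 had 5.14 to 5.67 CPM of the table in PC1-negative and 7.61 to 8.9 in PC1-positive libraries (1.51-fold), U6 at 10:79821340-79821445 was 1.47-fold and 7SL at 12:69206069-69206368 was 1.39-fold higher. Single copies went both ways, with 5 of 6 U6 copies and 2 of 5 7SL copies of at least 50 counts apart toward PC1-positive and 1 of either toward PC1-negative libraries. BC1 RNA, a neuronal RNA with 10688 rows that name its dispersed relatives, did not follow PC1 (348 ± 29.5 against 355 ± 32.3). Its 10 copies of at least 50 counts were all overlapping.

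Genes of small nuclear RNAs made by RNA polymerase II also stood higher in the PC1-positive libraries. U5, a core spliceosomal RNA, had 6.95, 7.75, 6.26 and 9.19 CPM of the table in WT F1, WT M2, KO F1 and KO M1, and 12.5, 11.8, 12.9 and 13.1 in KO F2, KO M2, WT F2 and WT M1 (1.67-fold). U3, which guides ribosomal RNA processing, was 1.43-fold, U2 1.35-fold, U4 1.28-fold and U1 1.24-fold higher, and each of these was apart. The small nucleolar RNA U17 went the other way, with 4.35 ± 0.389 against 3.59 ± 0.327 CPM of the table (apart), and U14 was lower too (1.9 against 1.49) but overlapped. U8 and U13 (log2 ratios 0.36 and 0.21) overlapped, as did U6 and 7SK. So 5 of 11 families of the table's snRNA class were apart toward PC1-positive and 1 toward PC1-negative libraries, against 5.64% and 4.3% of the 1187 subfamilies.

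The ribosomal DNA transcribed by RNA polymerase I was less separated. Rows of the small-subunit RNA had 411 ± 48.0 against 533 ± 50.8 CPM of the table (1.3-fold, apart by a narrow gap from 456 to 468), and those of the large-subunit RNA 598 ± 89.6 against 767 ± 71.4 (1.28-fold, overlapping). The small-subunit log2 ratio was 0.61 among KO libraries and 0.14 among WT libraries.

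**Figure D5:**
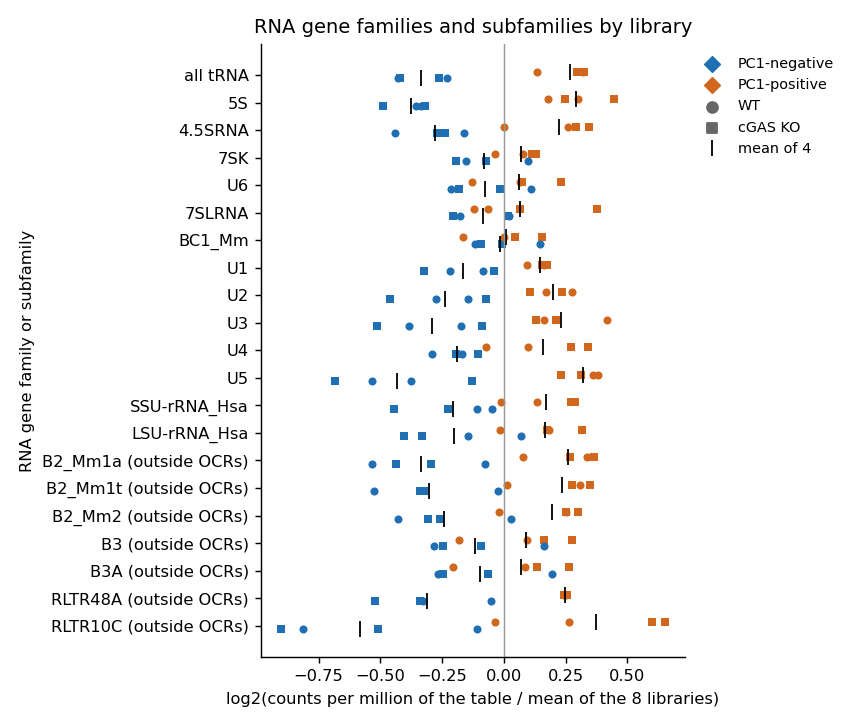
Counts of RNA gene families and of the B2, RLTR48A and RLTR10C subfamilies in every library, as the log2 of CPM of the table over the mean of the 8 libraries (horizontal), with squares for KO, circles for WT and a black bar for the mean of 4. The sides are wide apart for all tRNA, 5S and U5 and overlap for 7SK, U6, 7SL, BC1, B3 and B3A.

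Whether these families were apart also depended on the denominator. Of 16 families and subfamilies followed for this (all tRNA, 3 ribosomal, 4.5S, U1 to U5, U17, 3 B2 and 2 RLTR subfamilies), 14 were apart in CPM of the table and 7 per OCR total, namely all tRNA, 5S, U1, U2, U3, U5 and RLTR48A. Divided by the retrotransposon counts outside OCRs, which took between 15.0% (WT M1) and 25.8% (KO M2) of the table and did not follow the sides, only RLTR10C was apart. On that scale 8 of the 46 tRNA families and 23 of the 122 tRNA copies were apart and higher in PC1-positive libraries. The shares over all subfamilies and all copies were not counted on that scale, so these 2 counts have no background. The log2 ratio of all tRNA on that scale was 0.52, in the same direction as with the other totals (0.60 and 0.62).

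Outside OCRs the number of repeat subfamilies that were apart depended on the denominator. Of 1083 repeat subfamilies that averaged 100 counts or more outside OCRs, 9 (0.831%) were apart and higher in PC1-positive and 2 (0.185%) higher in PC1-negative libraries in CPM of the table. Of these, 4 and 1 were among the 813 retrotransposon subfamilies. Divided by the retrotransposon total the counts over the 1083 were 31 and 53. Without WT F1 or without WT M1, 22 were higher in PC1-positive libraries, and without KO M1, KO M2, WT F2 or WT M2 4 to 7 were higher in PC1-negative ones, as were 3 without WT M1. Leaving out a library can only raise such a count or leave it unchanged, since fewer values need to be apart. At 1000 counts or more the numbers were 4 (0.638%) and 0 (0.0%) of 627. The 4 were the long terminal repeats RLTR10C and RLTR48A and the young B2 subfamilies B2_Mm1a and B2_Mm1t. Over all ways to divide 8 libraries into 4 and 4, the mean share apart in 1 direction would exceed these shares. In CPM of the table the counts apart therefore do not by themselves show that a subfamily followed PC1.

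B2_Mm1a outside OCRs had 1693.0, 1233.6, 1319.4 and 1451.9 CPM of the table in WT F1, WT M2, KO F1 and KO M1, and 2145.7, 2293.2, 2250.3 and 1881.1 in KO F2, KO M2, WT F2 and WT M1. The means were 1424.5 ± 200 and 2142.6 ± 185 (1.5-fold), with no overlap. B2_Mm1t was 1.45-fold and B2_Mm2 1.35-fold higher, and B2_Mm2 overlapped. The older relatives B3 and B3A had log2 ratios of 0.20 and 0.16 and overlapped widely, so within the B2 family the ratio was larger in the B2_Mm1 than in the B3 subfamilies. Among KO libraries the ratio of B2_Mm1a was 0.68 and among WT libraries 0.50. OCRs that overlap a B2_Mm1a or B2_Mm1t copy had median log2 ratios of 0.12 and 0.16.

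RLTR10C, the long terminal repeat of an endogenous retrovirus, had 210, 129, 159 and 121 CPM of the table outside OCRs in WT F1, WT M2, KO F1 and KO M1, and 343, 356, 272 and 221 in KO F2, KO M2, WT F2 and WT M1 (155 ± 40.4 against 298 ± 63.1, 1.92-fold). WT F1 and WT M1, at 210 and 221, almost met. The ratio was larger among KO libraries (log2 1.31) than among WT libraries (0.54), a difference that was not tested. RLTR48A was 1.46-fold higher (52.0 ± 7.08 against 76.1 ± 0.389).

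The other subfamilies with the largest ratios overlapped. Toward PC1-positive libraries these were MURVY-int, ERVB4_2-LTR_MM and RLTR10B2 (log2 ratios 0.97, 0.72 and 0.58). The first 2 rested on single libraries: MURVY-int had 0.27 without KO M2, 0.64 without KO F1 and 1.67 without WT M2, and ERVB4_2-LTR_MM 0.39 without KO M2. MURVY-int, a retrovirus that is abundant on the Y chromosome, had 2.67 to 3.57 CPM of the table in KO F1, WT F1 and WT F2 and 18.2 to 56.3 in the other 5 libraries, which are those with Y counts. Toward PC1-negative libraries the major satellite GSAT_MM (log2 ratio -0.69) was followed by ERVB4_1C-LTR_Mm, ERVB3_1-I_MM, RLTR1C, L1_Mur1 and RMER16A3 (-0.26 to -0.22). Those 5 rested on single libraries too, with ratios of -0.095 to -0.002 without WT F1, -0.11 to -0.014 without WT M1, -0.18 to -0.12 without KO F1, -0.42 to -0.32 without KO M1 and -0.47 to -0.30 without KO M2, and GSAT_MM had -0.44 without WT F1. GSAT_MM, the repeat of pericentromeric heterochromatin, had 38.5 to 98.1 CPM of the table outside OCRs in PC1-negative and 25.3 to 55.7 in PC1-positive libraries, with KO F1 and WT F1 highest.

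LINE1 elements, named in the title of the series, did not follow PC1 in CPM of the table. L1 counts with the retrotransposon total are not given here. Over all copies, 2 of 148 L1 subfamilies (1.35%) were apart toward PC1-negative and 0 toward PC1-positive libraries. Over all 1187 subfamilies the shares were 4.3% and 5.64%. Outside OCRs none of the 148 L1 subfamilies was apart, and their median log2 ratio was -0.01. The ratio was above 0 in 147 of 148 among KO libraries and in 1 of 148 among WT libraries, so the side differences ran in opposite directions in the 2 genotypes. This was not particular to L1: of all 1083 repeat subfamilies outside OCRs, the ratio was above 0 in 1050 among KO libraries and in 65 among WT libraries. The retrotransposon share of the table outside OCRs ran the same way: 21.2 and 25.8% in the PC1-positive KO libraries against 21.0 and 15.3% in the PC1-negative ones, and 20.1 and 15.0% in the PC1-positive WT libraries against 25.3 and 16.6% in the PC1-negative ones.

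The single OCRs with the largest ratios had up to 15.3-fold differences. By the rule for named regions (a mean of at least 2 CPM, sides apart, the 6 largest ratios per direction), the OCR at 12:56236822-56237579 was the most uneven of those higher in PC1-negative libraries. It had 6.7, 10.6, 13.1 and 3.53 CPM in WT F1, WT M2, KO F1 and KO M1 and 0.414, 0.823, 0.647 and 0.335 CPM in KO F2, KO M2, WT F2 and WT M1. The region was open in the former and close to empty in the latter, in both genotypes (13.4-fold in KO, 17.6-fold in WT).

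The other 5 had 6.92-fold to 10.8-fold higher means in PC1-negative libraries. They lay at 4:62264146-62264605 (4.49 ± 2.69 against 0.415 ± 0.232 CPM), 15:33252172-33252673 (5.62 ± 2.15 against 0.773 ± 0.345), 14:79365126-79365724 (3.85 ± 2.41 against 0.534 ± 0.159), 1:125410319-125410971 (6.67 ± 2.78 against 0.933 ± 0.364) and 10:7230367-7230891 (8.24 ± 2.96 against 1.19 ± 0.299). In each of these 5 KO F1 had the highest value of the 8 libraries, as it had the lowest PC1 score. The OCRs on chromosomes 15, 14 and 1 overlap an MTA_Mm, a MER58B and a B4A copy, and those on chromosomes 4, 10 and 12 no repeat.

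Of the 6 OCRs named for higher values in PC1-positive libraries, the one at 1:170901792-170902160 lies inside the tRNA cluster of chromosome 1 and overlaps a tRNA-Gly-GGY copy. It had 4.85, 3.07, 1.48 and 3.99 CPM in WT F1, WT M2, KO F1 and KO M1 and 22.0, 15.1, 21.6 and 15.0 CPM in KO F2, KO M2, WT F2 and WT M1 (5.5-fold). The OCR at 10:61984133-61984673 had the largest ratio and the tightest groups, 0.717 ± 0.0819 against 4.43 ± 0.748 CPM (6.17-fold). At 9:8558502-8559074 the means were 1.07 ± 0.453 and 5.45 ± 1.88 CPM (5.1-fold).

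The remaining 3 were high mainly in the PC1-positive KO libraries. At 11:81991978-81993054 KO F2 and KO M2 had 8.74 and 13.2 CPM, WT F2 and WT M1 3.95 and 2.36 CPM, and the PC1-negative libraries 0.838 to 1.88 CPM. The OCRs at 11:109160139-109160870 and 17:17618910-17619373 showed the same order, with 5.55 and 6.47 CPM and with 5.8 and 7.17 CPM in KO F2 and KO M2. In the genotype comparison below, with its limits, all 3 were called higher in KO (edgeR's quasi-likelihood test, adjusted p = 0.0122, 0.0153 and 0.00896). The lowest adjusted p of the other named OCRs in that test was 0.346. The OCR on chromosome 17 overlaps an RSINE1 copy, and those on chromosomes 9, 10 and 11 no repeat.

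Along the chromosomes, whole neighbourhoods went one way in a few places. Of 8132 windows of 100 kb with at least 8 OCRs of at least 1 CPM, 7 had 75% or more of their OCRs apart and higher in PC1-positive libraries, and 9 had as many higher in PC1-negative ones. All 7 of the former lie at short RNA genes: 5 windows on chromosome 13 between 21300001 and 23700000 hold 11 to 22 tRNA copies each, the window from 8:124200001 holds 21 copies of 5S and the window from 6:47600001 holds 9 copies of 4.5S RNA. In the 8:124200001 window 20 of 24 OCRs were apart in that direction, and in the 13:22100001 window 14 of 18. Of the 9 windows higher in PC1-negative libraries none held more than 1 tRNA copy. Those from 3:38600001, 4:58100001 and 7:131600001 held 1 each. The window from 7:131600001 also held 1 copy of 5S, and that from 12:54100001 held 1 copy of 4.5S RNA. The 9 windows lay on chromosomes 1, 3, 4, 7, 10, 12 and 16, with median log2 ratios of -1.12 to -0.56. The window from 10:7200001 holds the named OCR of that chromosome. How many of the 8132 windows hold such copies was not counted, so the 7 have no background share. No window of the chromosome 1 tRNA cluster was among the 7.

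The genotypes were then compared with the side as a covariate, since either side holds both. With edgeR's quasi-likelihood test on OCR counts, with sex label and side as covariates, 8328 of 185268 OCRs (4.5%) passed a Benjamini-Hochberg adjusted p of 0.05, 6478 higher and 1850 lower in KO. Without the side 0 passed (18295 had an unadjusted p under 0.05 in the same test). The coefficient of biological variation, the spread between libraries that the model estimates, was 0.301 without the side and 0.182 with it. The side was read from the largest variation in these same counts, so a lower spread with it follows from that choice. DESeq2 with the same terms called 12369 OCRs and limma voom 9907. The p-values treat the side as known beforehand, whereas it was read from these same counts, so they may be too small, by an amount that was not tested. The count rested on single libraries: without WT F2 or without WT M1 it was 0 (smallest adjusted p 0.0864 and 0.0814), without KO M2 1478, without WT M2 3022, without KO M1 4989, without KO F1 5282 and without WT F1 17476. Without the library labelled KO F2 it was 9502, and without the sex label as a covariate 8159.

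Of the 3 OCRs with the lowest p in either direction, picked after the fit, that at 9:61609561-61610242 was higher in KO with 6.35 and 5.52 CPM in the PC1-negative KO F1 and KO M1 and 14.6 and 16.4 CPM in the PC1-positive KO F2 and KO M2, against 2.87 and 1.54 CPM in WT F1 and WT M2 and 5.44 and 2.74 CPM in WT F2 and WT M1 (adjusted p = 0.00896 in edgeR's quasi-likelihood test). Within either side both KO libraries exceeded both WT libraries, while over all 8 the PC1-negative KO values nearly met that of WT F2. At 11:18481603-18482193, lower in KO, the KO libraries had 1.53 to 3.38 CPM and the WT libraries 3.77 to 10.1 CPM (adjusted p = 0.00896 in the same test).

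Genotype calls were also counted in the classes described above, with no test of a difference from the 4.5% of all OCRs. Of 366 OCRs with a tRNA copy 10 (2.73%) passed, of 85 with a 5S copy 1 (1.18%), of 711 OCRs of 50 CPM or more 12 (1.69%, all lower in KO) and of 3457 with a CG-holding repeat of G and C 21 (0.607%). The shares were 3.45% for OCRs with a 4.5S copy, 3.98% with a B2_Mm1a copy and 3.45% with a B2_Mm1t copy. Among repeat subfamilies 0 of 1187 (0.0%) passed with the side in edgeR's model, 3 had an unadjusted p under 0.05, and DESeq2 called 0. None of the 46 tRNA families had an unadjusted p under 0.05, and their median log2 difference (KO minus WT) was 0.09, against 0.10 over the 1187 subfamilies. The 5S family differed by 0.05 (edgeR adjusted p = 0.98) and B2_Mm1a by 0.05 (adjusted p = 0.98). Without KO M2, 12 subfamilies passed.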

How the data were processed

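The deposited table gives estimated counts of read ends for 185268 OCRs and for the repeat copies of the GRCm39 genome in 8 libraries. Per the file headers, the authors counted both kinds of region together with featureCounts 2.0.3, using properly paired reads reduced to their 5′ ends and adding a fraction of a read end to each region where regions overlap. Trim Galore, Bowtie2, SAMtools, Picard, MACS2 and bedtools are named in the submitters' processing notes. How reads with several equally good positions were placed is not given in the sources used here.

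OCR values were divided by the OCR total (CPM) and repeat values by the total of the table. Library totals were 43.2 to 72.9 M counts. PC1 was computed on log2 CPM with a prior count of 2. OCRs were described at a mean of at least 1 CPM, repeat subfamilies at 100 and single copies at 50 counts per library. The side contrast has no test, since the sides were picked from these counts. The named OCRs are the 6 with the largest ratios in either direction at a mean of at least 2 CPM, and the named subfamilies the 6 in either direction at 1000 counts outside OCRs. Tandem tRNA clusters hold at least 4 copies with gaps under 100 kb.

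Genotypes were compared with edgeR 4.0.16 (quasi-likelihood, TMM, filterByExpr, estimated counts rounded) in R 4.3.3, with sex label and side as covariates and Benjamini-Hochberg adjustment. DESeq2 1.42.0 and limma 3.58.1 were alternatives. The scripts were tested on simulated data. Libraries were treated as separate mice on the labels and the design text together, since the labels alone give only genotype, sex and a number. The members and lists were chosen with earlier results of these data known. Gene lists and cell type markers were not used here, because the gene table at hand is of another build than the deposited counts.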

Additional observations from a re-analysis of the deposited data

Results flagged for a closer look

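Within the sides, 10 of 178 groups of 4 libraries had 1 library far from the other 3 (Dixon's 95% critical value for the gap over the range, which chance passes in about 1 group in 20). All values are CPM of the table. KO M1 was above the other PC1-negative libraries in tRNA-Arg-AGG (4.18, others 3.58 to 3.61), tRNA-Gly-GGA (7.88, others 5.39 to 5.77), tRNA-His-CAY_ (8.83, others 6.97 to 7.22) and tRNA-Ser-TCG (2.03, others 1.53 to 1.62). WT M1 was below the other PC1-positive libraries in tRNA-Gly-GGA (13.3, others 15.4), tRNA-Met_v (3.6, others 3.95 to 3.98), tRNA-Trp-TGG (4.99, others 5.93 to 6.12) and all tRNA rows together (370, others 413 to 422). WT F2 was above the others of its side in tRNA-Met-i (7.96, others 7.0 to 7.06), and WT F1 below the others of its side in tRNA-Phe-TTY (3.1, others 3.39 to 3.44).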

How the results depend on the processing

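The side of every library was the same under all alternatives of PC1. The counts of OCRs apart and at least 2-fold moved with their thresholds: those higher in PC1-positive libraries were 1252 with the table total, 4951 with no minimum level, 187 at 5 CPM, 7032 at 1.5-fold and 60 at 4-fold (1765 to 3358 without 1 library), and those higher in PC1-negative libraries 970 at 5 CPM, 15789 at 1.5-fold and 307 at 4-fold (5581 to 9528 without 1 library). Of repeat subfamilies outside OCRs, 4 were higher in PC1-positive libraries with the OCR total, 31 with the retrotransposon total and 67 over all copies (9 to 22 without 1 library, 22 without WT F1 or WT M1), and 53 and 51 were higher in PC1-negative libraries with the retrotransposon total and over all copies (2 to 7 without 1 library, 7 without KO M2). Without 1 library these subfamily counts can only rise or stay the same, since fewer values need to be apart. With the retrotransposon total, 8 tRNA families and 23 tRNA copies were apart and higher in PC1-positive libraries, with no background share counted. On that scale the log2 ratio of BC1 turned to -0.05 and that of tRNA-Ala-GCY_v to -0.025, and without 1 library that of BC1 was -0.024 (without KO M2) to 0.084, with -0.007 without WT M2. The cause was not tested. The 12 named OCRs and 13 named subfamilies kept their direction under every alternative run. For the named OCRs and for subfamilies that were apart, leaving out 1 library cannot turn the direction, so that result is no support. The named OCRs were also picked for large ratios, which a change of library size hardly moves. The ratios of several named subfamilies that overlap between the sides moved by over 1.5 times without 1 library.

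The genotype count of OCRs was 0 without the side and 0 to 17476 without 1 library, and that of subfamilies 0 to 12 without 1 library. With the replicate block (sex label and number together) 12139 OCRs and 3 subfamilies passed. The labels do not say that numbers pair mice across genotypes. Same-numbered libraries deviated together in 2 of 4 pairs (correlations 0.61 and 0.63 for females 1 and 2, -0.3 and -0.49 for males 1 and 2). Of 4 KO libraries, 2 were most like their own number. The side was not removed before this. Same-numbered females lie on the same side in both genotypes and same-numbered males on opposite sides. The correlations therefore repeat the split and cannot decide whether numbers pair mice. With 4 libraries on a side, a gap smaller than the spread within it cannot be seen.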

Other observations

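Among 210 repeat subfamilies found in at least 60 OCRs of at least 1 CPM, OCRs with IAPEY4_LTR, the long terminal repeat of an endogenous retrovirus, had the largest median log2 ratio (0.36). Of 63 such OCRs 32 (50.8%) were apart and higher in PC1-positive libraries and 0 the reverse, against 12.1% and 15.9% of all OCRs of that level. RMER6C OCRs followed with 27.5% and 7.5% of 120. At the other end lay RMER4A OCRs, with 8.0% and 33.3% and a median of -0.39. These subfamilies were singled out after their values were seen, and the sides themselves come from the same OCRs.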
